A study of Mus musculus with 216 samples.

Results

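Intergenic H3K9me3 domains of 6.3 to 12 kb are stretches of histone H3 lysine 9 trimethylation that touch no annotated gene and have about the length of a full retroviral insertion. They were taken from the authors' deposited table of domains on mm10, on chromosomes 1 to 7, 9, 10 and 12 to 19, as those that overlap no GENCODE vM21 gene of any type and are 6300 to 12000 bp wide. This gave 2880 domains of the 34389 on those 17 chromosomes, or 8.37%, and of 43039 in the whole table. They cover 24.4 Mb, with a median width of 8.1 kb. The choice used position and width only, and not the decay class.

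The study followed H3K9me3 and HP1β in a mouse embryonic stem cell line named dTKO, by chromatin immunoprecipitation and sequencing. All cells carried Suv39h1fl/fl, Suv39h2-/- and Setdb1fl/fl, the 0 h control included, and the time course began with 100 µg/ml of auxin and 0.5 µM of dTAG13, compounds that direct tagged proteins to degradation. The labels give 1 cell line and do not say which proteins were tagged. Of 216 sequencing runs, 9 belong to each combination of 6 times (0, 1, 3, 12, 24 and 48 h) with H3K9me3, HP1β or an input of either, as 3 repeats of 3 runs. The readout here is the class the authors gave each domain by how its H3K9me3 decayed, in the words fast, intermediate, slow and residual. Each domain has 1 class and libraries have no values of their own, so nothing below carries an error between cultures. In such bulk profiles, fewer cells with the mark and less mark per cell cannot be told apart.

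H3K9me3 is laid down by Setdb1 and the Suv39h enzymes, is read by HP1 proteins and keeps repeated DNA silent. In embryonic stem cells Setdb1, brought to DNA by KRAB zinc finger proteins and Trim28, is known for silencing endogenous retroviruses. Such an element has a long terminal repeat (LTR) at each end, and the 2 copies are identical when it inserts and drift apart later. Just inside the upstream repeat lies the primer binding site, which pairs with the 3′ end of a host tRNA and starts reverse transcription. The tRNA helps to tell groups of elements apart: phenylalanine tRNA is known from intracisternal A particles, lysine tRNA from MusD and ETn elements, proline tRNA from elements related to murine leukemia virus, glycine tRNA from VL30, glutamine tRNA from GLN elements and leucine tRNA from MERVL. No repeat library was used here, so families are numbered and given with their tRNA, and these names are background only.

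The sequences that follow show the primer binding site, by which the tRNA of a family was read. Each is 75 bases of the GRCm38 reference, read 5′ to 3′ along the element, with the last 30 bases of the upstream repeat followed by the first 45 inside it. Capitals mark the 18 bases of the primer binding site. Each comes from the slow domain of its family with the most alike pair of repeats, the first in genome order.
Family 1, chr1:18517162-18517236, plus strand: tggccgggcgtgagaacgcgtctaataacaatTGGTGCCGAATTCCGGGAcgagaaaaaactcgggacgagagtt
Family 2, chr7:106664411-106664485, minus strand: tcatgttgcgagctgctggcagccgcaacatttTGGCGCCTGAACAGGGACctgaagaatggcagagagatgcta
Family 4, chr1:8190424-8190498, plus strand: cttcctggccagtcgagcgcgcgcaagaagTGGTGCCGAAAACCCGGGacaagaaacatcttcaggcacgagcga
Family 5, chr3:27023571-27023645, minus strand: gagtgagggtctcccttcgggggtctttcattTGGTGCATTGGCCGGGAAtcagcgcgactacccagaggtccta

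Positions in a site count from 1 at its 5′ end. The family 1 site differs from the one that matches phenylalanine tRNA (tggtgctgaaacccggga) by T7C, A11T and C12T, where the first letter is the tRNA match and the last the element. The family 2 copy has an exact match to a lysine tRNA, a site found in 5 domains of that family. The most frequent site of family 2, in 16 domains, differs from a lysine site by C8A and A13T. The family 4 site is the nearest match to the phenylalanine site with up to 4 mismatches. Sites were compared without gaps, so where an element has an inserted base the capitals mark the nearest ungapped match and not an exact boundary. Family 5 has an exact match to a glycine tRNA, and other copies of that family carry a proline site (tgggggctcgtccgggat). The chosen copies of families 3 and 6 had no match with up to 4 mismatches. The first 60 bases of the upstream repeat follow for families 1, 2 and 5, the first with the most domains, the second with the lowest slow share of the large families and the third with the longest elements.
Family 1, chr1:18516840-18516899, plus strand: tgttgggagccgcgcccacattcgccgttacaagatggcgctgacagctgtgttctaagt
Family 2, chr7:106664716-106664775, minus strand: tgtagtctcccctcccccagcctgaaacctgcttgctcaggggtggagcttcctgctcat
Family 5, chr3:27024125-27024184, minus strand: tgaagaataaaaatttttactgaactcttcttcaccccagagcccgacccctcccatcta

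Of the 2880 domains, 1282 were slow, or 44.5% with a 95% Wilson interval of 42.7 to 46.3%, against 18.1% of all domains on these chromosomes. Another 1546 were intermediate (53.7%, against 76.7% of all domains), 33 were fast (1.15%, against 2.93%) and 19 residual (0.660%, against 2.25%). Intervals here cover counting error only, and domains that share a repeat are not independent. Per chromosome, the slow share ran from 34.4% on chromosome 7 over a median of 45.5% to 54.9% on chromosome 16. The plot of slow shares by chromosome shows how little these 17 values spread compared with the gap to short domains.

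**Figure D1:**
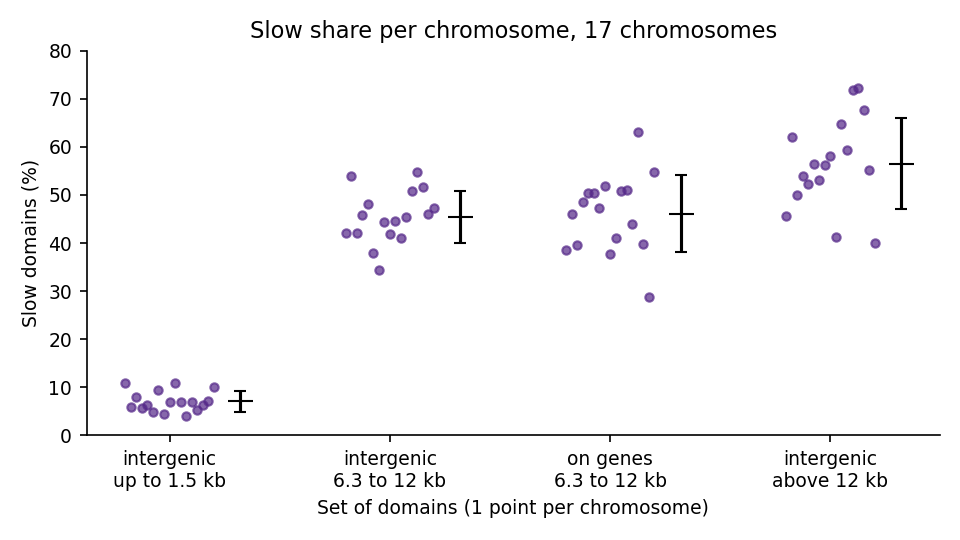
Percent of domains in the slow class (vertical axis) for 4 sets of domains (horizontal axis), with 1 point for each of the 17 chromosomes and, to the right, the mean with an SD bar. Intergenic domains of 6.3 to 12 kb lie between 34.4 and 54.9%, all above intergenic domains up to 1.5 kb, which lie between 3.98 and 10.9%.

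The question of whether gene-free domains decay differently from domains of the same width on genes was put to 3 class shares, each as the difference within a chromosome. The test was a two-sided exact sign-flip permutation test over the 17 chromosomes, with Benjamini-Hochberg adjustment over 9 tests. Its p-values measure spread between chromosomes, not cultures. The slow share was 45.4% over chromosomes in the gene-free domains and 46.1% in 1487 domains on genes, a difference of -0.679 ± 8.77 percentage points (SD), lower on 9 of 17 chromosomes, with an adjusted exact p of 0.75. With only protein-coding genes making a domain genic, the difference was -4.70 ± 9.53 points (adjusted exact p = 0.0769), and without chromosome 7 it was 0.0854. The test did not tell these slow shares apart under any of these settings. The fast share differed by -0.563 ± 1.81 points, which was within the spread too (adjusted exact p = 0.292). Residual domains were rarer off genes, at 0.608% against 3.43%, a difference of -2.82 ± 3.43 points, lower on 13 chromosomes and higher on 2 (adjusted exact p = 0.00176).

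Against intergenic domains above 12 kb (677 domains), the slow share was lower by 11.1 points (difference -11.1 ± 8.48, SD; lower on 15 of 17 chromosomes; adjusted exact p = 0.000446). Without domains that hold any sequence of family 1, a repeat family described below, the difference was -5.87 ± 12.6 points and no longer passed (adjusted exact p = 0.111). Fast domains were 1.08% ± 0.869 (SD over chromosomes) against 0 on every chromosome. No chromosome could come out lower, so no p is given, and 0 of 677 allows a share of up to 0.443% by counting error. The residual shares did not differ beyond their spread (-0.391 ± 1.81 points, adjusted exact p = 0.442). Against the 3430 intergenic domains up to 1.5 kb, the slow share was higher on all 17 chromosomes, by 38.4 ± 6.37 points (adjusted exact p = 0.000137), and by 13.6 ± 5.03 points without family 1 sequence. The fast share was lower by 1.60 points (difference -1.60 ± 1.65, adjusted exact p = 0.00236; -1.20 ± 2.17 without family 1 sequence, adjusted exact p = 0.0699) and the residual share by 1.34 points (-1.34 ± 0.961, adjusted exact p = 0.000446). That slow shares rise with width was known from earlier results on this table, so the direction of the slow comparisons by width is not independent evidence.

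Within the range the slow share was higher in wider domains too, as the plot of classes by width shows. It was 35.6% in 940 domains of 6.3 to 7.2 kb, 39.8% in 982 of 7.5 to 9.0 kb and 58.0% in 958 of 9.3 to 12 kb. Fast domains went from 1.81% to 1.12% and 0.522% over the same ranges. At the limits themselves, 32.9% of the 286 intergenic domains just outside at 6 kb were slow and 30.4% of the 230 just inside at 6.3 kb. At the upper limit the shares were 59.6% of 57 domains at 12 kb and 70.7% of 41 at 12.3 kb, with Wilson intervals that overlap.

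**Figure D2:**
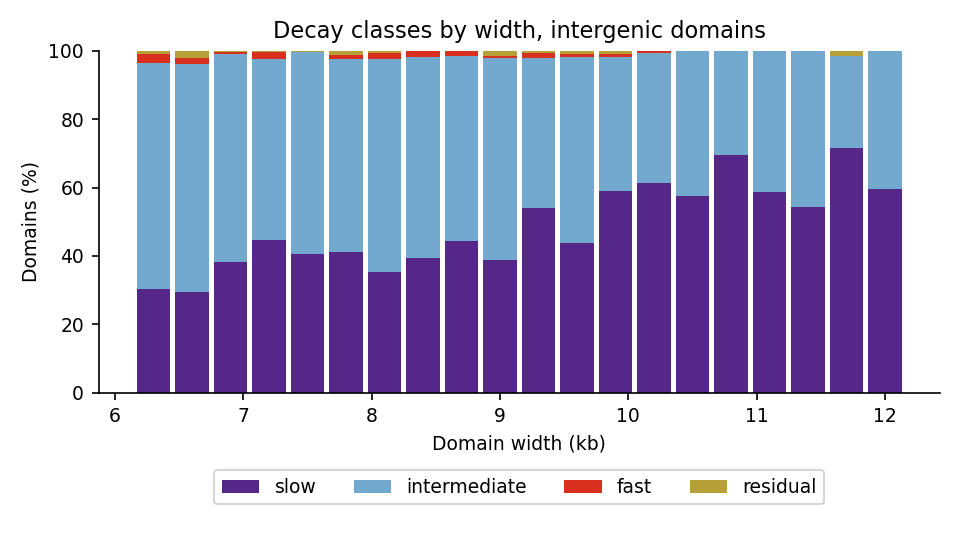
Percent of intergenic domains in each decay class (stacked bars, vertical axis) at each width from 6.3 to 12 kb in steps of 300 bp (horizontal axis). The slow share is 30.4% at 6.3 kb and 59.6% at 12 kb, and fast and residual domains form the thin top of the bars.

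The width of a full retroviral insertion was checked against the sequence. A self-alignment of each domain looked for a pair of direct repeats of 250 to 1500 bp with at least 85% identity that start 1.5 to 11.5 kb apart. Such a pair was present in 1626 of the 2880 domains (56.5%), and 1254 showed no pair. The pairs spanned a median of 5.48 kb, with quartiles of 4.17 and 7.12 kb, and 558 of them spanned at least 7 kb, which is 19.4% of all domains. The label of a full-length insertion thus does not hold for most of these domains by this measure, since 1254 show no pair and most pairs span under 7 kb. The share was 52.7% in domains on genes of the same width and 83.6% in intergenic domains above 12 kb. Of the 1626 pairs, 548 also had a primer binding site with at most 1 mismatch, starting from 20 bp inside to 40 bp past the inner end of the upstream repeat. Of the 1254 without a pair, 71 were set apart as tandem before a pair was sought. In these, self-alignments at an offset under 1000 bp covered over 20% of the domain. Another 28 of the 1254 had an open reading frame of at least 1000 codons. The remaining 1155 had neither.

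Exact primer binding sites were searched as 122 sequences of 18 bases on both strands, taken from the 3′ ends of annotated tRNA genes with CCA added. Anywhere inside the domain, at least 1 was present in 339 domains (11.8%). At the window length of 8.1 kb it was 18 of 173 domains (10.4%) against 347 of 85651 windows that hold no gene and no H3K9me3 domain (0.405%). The phenylalanine site, TGGTGCTGAAACCCGGGA, lay in 6 of the 173 domains (3.47%) and in 6 windows (0.00701%). The 7 leucine sites, the kind known from MERVL, were TGGTACCAGAAGTGGGGT, TGGTACCAGGAGTGGGGT, TGGTACTGGGAGTGGGGT, TGGTGGCAGCGGTGGGAT, TGGTGGCAGTGGTGGGAT, TGGTGTCAGAAGTGGGAT and TGGTGTCAGGAGTGGGAT. They lay in 310 of the windows (0.362%), in 2 of the 173 domains (1.16%) and in 10 of all 2880 domains of any width (0.347%). Of the 548 sites beside a repeat, 0 were for leucine. A match describes the letters only.

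Domains with a pair of repeats were slow far more often than those without. Of 1626 with a pair 1081 were slow (66.5%), and of 1254 without 201 (16%). The difference over chromosomes was 50.7 ± 7.08 points (SD), higher on all 17 (adjusted exact permutation p = 3.05e-05). It was 21.1 ± 9.83 points without domains holding family 1 sequence (adjusted exact p = 6.10e-05). Domains with a pair were also wider, with a median of 8700 bp against 7500 bp without, and the part of width was not tested. Pairs with a site within 1 mismatch were compared with all other pairs, which include those whose site has more mismatches. The most frequent family 1 site, with 3 mismatches, is among these other pairs (370 domains, 98.4% slow). Slow shares over chromosomes were 70.5% with a site within 1 mismatch and 65.6% in the other pairs. The difference was 4.90 ± 9.39 points, higher on 12 of 17 (adjusted exact permutation p = 0.0485 over the 2 tests that could be run). That call is fragile, since it is lost without any one of 12 of the 17 chromosomes (adjusted exact p from 0.0145 to 0.0927) and turns to -7.65 points when only exact sites count. The 28 domains with a long reading frame and no pair were slow in 3 cases (10.7%), too few per chromosome for a test. A pair was present in 2 of the 33 fast domains and 3 of the 19 residual domains.

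Grouping the left repeats by alignment, at 80% identity over 80% of their length, gave 147 families, of which 7 had at least 20 domains and held 1285 of the 1626 pairs. Their decay classes differed widely, as the plot by repeat family shows. Family 1 was by far the most common, with 825 domains on 17 chromosomes, and 797 of them were slow (96.6%, Wilson interval 95.1 to 97.6%). The other 28 were intermediate, and none was fast or residual. Per chromosome its slow share ran from 93.2% to 100%. It held 62.2% of all slow domains of this set, and 23.6% of the 2055 domains outside family 1 were slow.

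**Figure D3:**
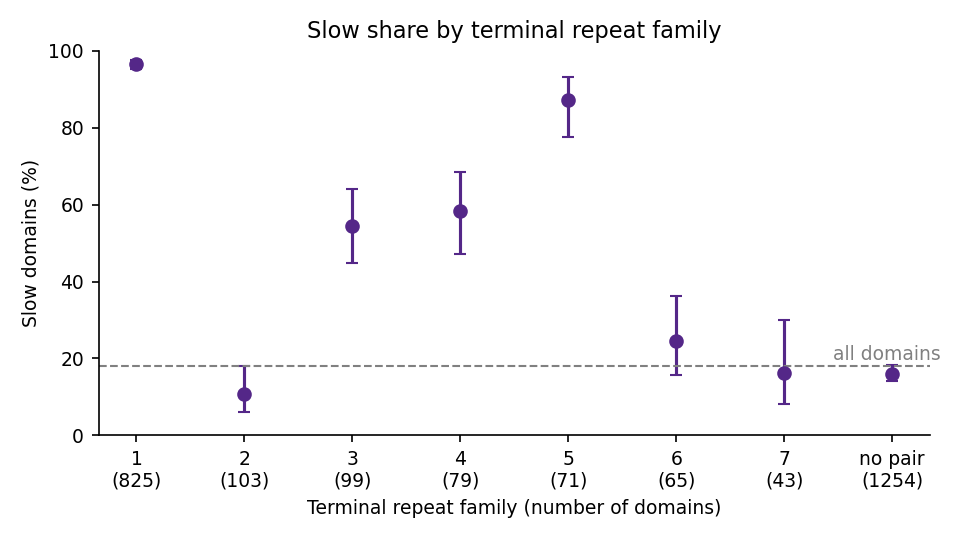
Percent of domains in the slow class (vertical axis) for the 7 terminal repeat families with at least 20 domains and for domains without a pair of repeats (horizontal axis, with the number of domains), with 95% Wilson intervals. The dashed line is the 18.1% of all domains. Family 1 is at 96.6% and family 5 at 87.3%, and family 2 is at 10.7%.

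Family 1 repeats had a median length of 359 bp and a median identity of 99.7% between the copies, with quartiles of 98.7 and 100%. The elements spanned a median of 5.08 kb, with quartiles of 3.99 and 7.08 kb, and all 299 with a site within 1 mismatch matched phenylalanine tRNA. With up to 4 mismatches, 761 of the 825 had a site. The site shown above, with T7C, A11T and C12T, was the most frequent, in 370 domains with a median span of 6.81 kb, and 98.4% of them were slow. The site with T7C alone (tggtgccgaaacccggga) was in 134 domains of 4.39 kb median span, and 97.8% were slow. The exact match was in 54 domains, all of them slow. These site variants of family 1 all had slow shares above 97%.

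The other large families had lower slow shares. Family 5, with repeats of 561 bp and elements of 8.77 kb, was slow in 62 of 71 domains (87.3%, interval 77.6 to 93.2%), and its sites matched proline tRNA in 33 and glycine tRNA in 27. Slow domains were 30 of the 33 with a proline site and 23 of the 27 with a glycine site. Family 4, with repeats of 434 bp, elements of 7.11 kb and a phenylalanine-like site, was slow in 46 of 79 (58.2%, 47.2 to 68.5%). Family 3, with repeats of 332 bp and a lower median identity of 94.3%, was slow in 54 of 99 (54.5%, 44.8 to 64.0%).

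Family 2, whose 31 sites all matched lysine tRNA, was intermediate in 92 of 103 domains and slow in 11 (10.7%, interval 6.07 to 18.1%). Its repeats were 324 bp with a median identity of 97.9%. In family 6, 46 of 65 domains had a phenylalanine site, and 16 of 65 were slow (24.6%, 15.8 to 36.3%). In 30 of its domains the site had the same 18 bases as a common one of family 1 (tggtgccgaaacccggga), and 30% of those were slow against 97.8% for the same letters in family 1. Family 6 elements were short, with a median span of 3.07 kb in domains of 7.8 kb median width, so these domains also held much other sequence. At least 1000 bp of the sequence chosen to represent domains with a long reading frame was in 33 of 65, against 130 of 825 in family 1. The part of this other sequence in the slow shares was not tested.

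Family 7 (43 domains, 7 slow) went against the reading as a retrovirus. Its pairs were 1133 bp long and 89.2% identical, none had a primer binding site within 1 mismatch, and a median of 72.0% of the domain aligned to the sequence chosen to represent domains with a long reading frame, a feature of LINE-1 elements. A pair of small families, named after their values were seen, had glutamine sites and repeats as alike as those of family 1. Family 8 (15 domains, 99.3% identity) had 3 slow domains, and family 11 (14 domains, 100% identity) had 0. The 341 pairs outside the 7 families were slow in 25.8%.

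Repeats of slow domains were more alike than those of intermediate domains. The median identity over chromosomes was 99.4% against 95.1%, a difference of 4.33 ± 1.52 points, higher on all 17 chromosomes (exact sign-flip permutation p = 1.53e-05, the smallest that 17 chromosomes can give). In steps of identity the slow share was 34.6% at 85 to 90%, 39.2% at 90 to 95%, 64.1% at 95 to 98%, 72.3% in the next step and 84.8% within 0.5 points of full identity. Outside family 1 the same steps gave 24.8, 28.8, 39.5, 46.9 and 40.4%. The rise with identity was smaller there, and the highest step was not above the one before it, as the plot by repeat identity shows. The test gave 2.49 points without domains holding any family 1 sequence (adjusted exact p = 0.00143).

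**Figure D4:**
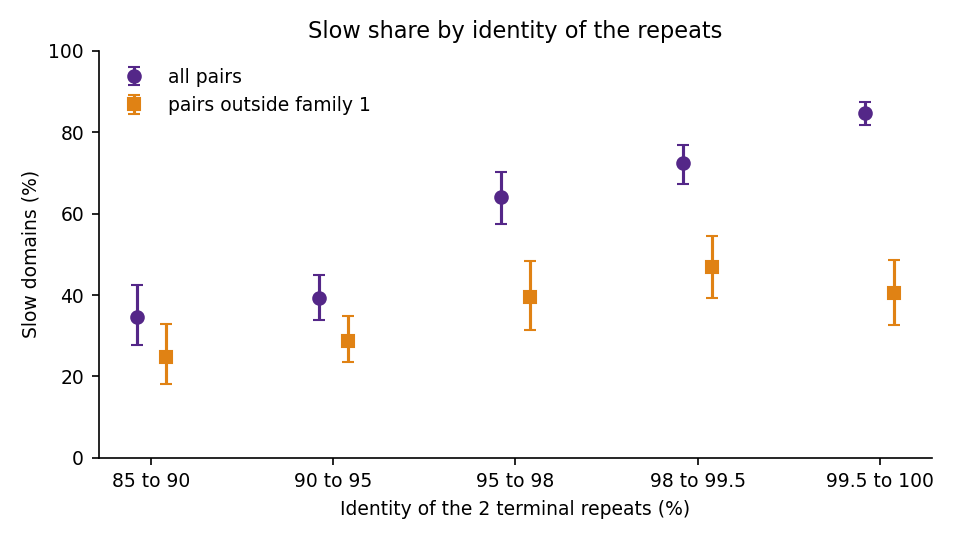
Percent of domains in the slow class (vertical axis) by identity of the terminal repeats (horizontal axis, percent), for all 1626 pairs and for pairs outside family 1, with 95% Wilson intervals. All pairs climb from 34.6 to 84.8%, and pairs outside family 1 lie between 24.8 and 46.9%.

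To take in elements without a recognised pair, the length of family 1 sequence in each domain was measured too, as bases that align at 80% identity or more to 1 full copy of 7084 bp. The steps were chosen after the classes were seen, so they are a description with no test. Of 1832 domains with none, 377 were slow (20.6%, interval 18.8 to 22.5%), and of 129 with some but under 1000 bp, 26 (20.2%). The share was 73.5% in 34 domains with 1000 to under 2000 bp, 92.3% in 297 with 2000 to under 4000 bp, 97.5% in 282 with 4000 to under 6000 bp and 99.7% in 306 with 6000 bp or more. At least 1000 bp was found in 919 domains, 879 of them slow (95.6%), which is 68.6% of all slow domains in the set. The interval of the step under 1000 bp, 14.1 to 27.9%, holds the share of domains with none.

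**Figure D5:**
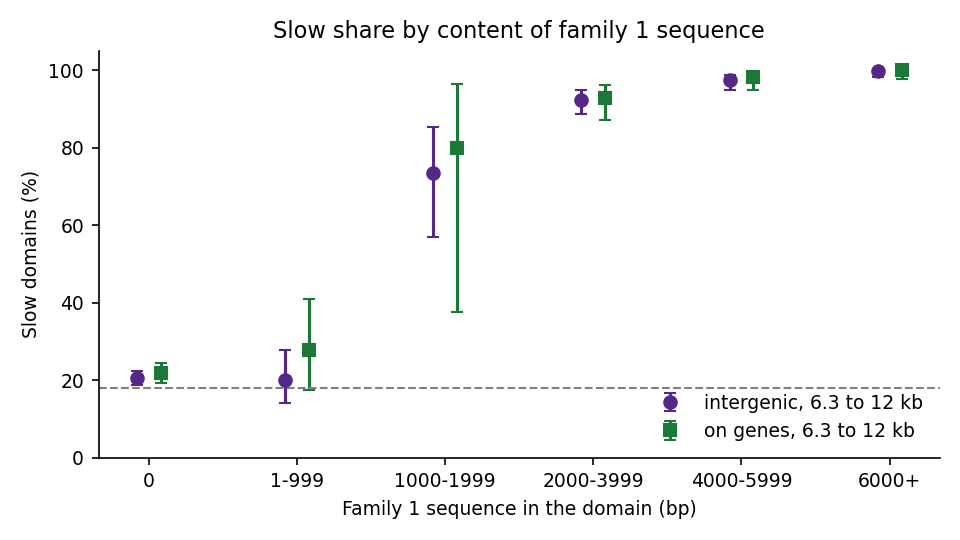
Percent of domains in the slow class (vertical axis) by bases of family 1 sequence in the domain (horizontal axis), for intergenic domains and for domains on genes, both 6.3 to 12 kb wide, with 95% Wilson intervals. The dashed line is the 18.1% of all domains. The sets go from 20.6 and 21.8% to 99.7 and 100%.

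Domains of the same width on genes had nearly the same values, with 21.8% slow of 960 without family 1 sequence and 97% of 473 with at least 1000 bp. Within the gene-free set itself, domains with no pair were slow in 12.1% of 1122 without the sequence (interval 10.3 to 14.2%). With at least 1000 bp, 86.2% of 65 were slow (75.7 to 92.5%). Both were below the shares of the whole gene-free set, a difference that was not tested. In intergenic domains above 12 kb the shares were 27.4% of 321 and 89.8% of 314. Short intergenic domains, up to 1.5 kb, went the other way. With any family 1 sequence 6 of 206 were slow (2.91%, interval 1.34 to 6.21%), against 7.54% of 3224 without it. Domains this short can hold only part of an element, and the difference was not tested. On chromosomes 8, 11, X and Y, which the rule leaves out, 758 intergenic domains of this width were slow in 45.4% and residual in 12.8%. These chromosomes differed among themselves. Without family 1 sequence, 51.7% of 149 domains on chromosome 8 and 46.3% of 108 on chromosome 11 were slow, against 19.8% of 257 on X and 1 of 15 on Y. With at least 1000 bp, it was 42 of 43 on chromosome 8 and 33 of 34 on chromosome 11, against 67 of 94 on X and 14 of 23 on Y.

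How much of a family 1 domain can be placed by unique reads did not order the slow share in 1 direction. It was 91.7% of 145 domains with under 20% unique 31-mers, 99.0% of 389 with 20 to 40% and 95.9% of 291 with 40% or more. Reads in repeats can fall on several copies, and the sources used here do not give how the authors assigned them, so a class may partly come from other copies. By span between the repeats, 91 of 104 elements under 3 kb were slow (87.5%), 187 of 189 of 4 to 5 kb (98.9%), 126 of 133 of 5 to 6 kb (94.7%), 260 of 260 of 7 to 8 kb and 2 of 3 of 8 kb or more.

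Pairs were searched only inside domains, so each domain had to enclose its element. The lower width limit of 6.3 kb also sets a minimum flank for short elements. The flank lengths that follow are thus a description and no measure of spread. In family 1, the part of the domain outside the element had a median of 3.66 kb in all, with quartiles of 2.65 and 4.64 kb. That median was 4.58 kb for elements spanning under 4 kb and 3.06 kb for those over 7 kb. Direction was read only from sites within 1 mismatch, which leaves out the 370 family 1 domains with the most frequent site. In the 299 elements with a direction, the upstream flank had a median of 2104 bp and the downstream flank 1689 bp. The upstream one was longer in 208 (69.6%). In family 5 it was 1156 against 487 bp, longer upstream in 49 of 60 (81.7%), and in family 2 it was 1425 against 1381 bp, longer upstream in 15 of 31 (48.4%). The difference between families was not tested. Across the 825 family 1 domains, span and domain width had a Pearson r of 0.467 and a Spearman rho of 0.456, given as a description, since an element cannot span more than its domain.

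Slow domains also differed from intermediate ones in base composition and copy number, tested as differences of medians within each chromosome with adjustment over 9 measures. CpG observed over expected was 0.353 against 0.234, a difference of 0.119 ± 0.0193 (SD), higher on 17 of 17 chromosomes (adjusted exact permutation p = 2.75e-05). GC content was 44.1% against 41.8%, a difference of 2.23 ± 0.384 points, with the same count and adjusted exact p. The share of 31-mers found at least 100 times in the genome was 45.1% against 19.6%, higher by 25.4 ± 6.05 points on 17 of 17. Without domains holding family 1 sequence it was 5.47 ± 7.39 points (adjusted exact p = 0.0117). Unique 31-mers were lower on 17 of 17, at 33.7% against 42.5%. The longest open reading frame was 504 against 249 codons, also higher on 17 of 17, and these had that adjusted exact p of 2.75e-05 too. The reading frame difference was 255 ± 73.2 codons, and 131 ± 61.0 without family 1 sequence (adjusted exact p = 4.58e-05).

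Slow domains were wider by 829 ± 463 bp, on 16 of 17 chromosomes (adjusted exact permutation p = 4.58e-05), and more of their sequence was soft-masked as repeat, 77.3% against 73.6% (difference 3.70 ± 3.32 points, higher on 15; adjusted exact p = 0.000118). The soft-masked difference was 7.33 ± 5.50 points without family 1 sequence (adjusted exact p = 0.000206) and 6.25 ± 2.53 with means in place of medians. Their distance to the nearest protein-coding start was longer by 0.56 ± 0.52 on the log2 scale, on 14 of 17 chromosomes (adjusted exact p = 0.000601). The difference in distance was 0.14 ± 0.90 with an adjusted exact p of 0.593 when domains with any family 1 sequence were left out, a choice made after seeing the data. The gap to the next domain did not pass the test (0.18 ± 0.42 on the log2 scale, adjusted exact permutation p = 0.0968).

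The 1832 domains without family 1 sequence had a slow share of 20.6%, and their classes differed with the other sequence they held. At least 1000 bp of the family 5 copy was in 80 of them, with 83.8% slow, and of the family 3 copy in 66, with 69.7% slow. The family 4 copy gave 48.9% of 141, the family 6 copy 20.3% of 79 and the family 2 copy 10.3% of 195. Sequence like that of the domains with a long reading frame, a LINE-1-like trait, was the most common, at 1000 bp or more in 884 domains, of which 13.0% were slow, 85% intermediate and 1.70% fast. Where it covered at least 50% of the domain, 43 of 456 were slow (9.43%). Of all 2880 domains, 572 held under 1000 bp of each of these copies and of the family 1 copy, and 15.6% of those were slow. With family 1 sequence left out, the slow share was still higher in wider domains, going from 15.5% at 6.3 to 7.2 kb to 31.1% at 9.3 to 12 kb.

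The slow share also differed with the length of the longest open reading frame. Of 143 domains with a frame of at least 1000 but under 1200 codons, 115 were slow (80.4%). Of the 21 with 1200 to 1400 codons, 19 were intermediate, 2 fast and none slow. Frames of 800 to under 1000 codons, found in 257 domains, came with 91.1% slow, and frames under 200 codons with 18.1% of 780.

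The 33 fast domains, spread over 14 chromosomes, differed from slow ones in what they held. In 16 of them at least 1000 bp aligned to the copy with the long frame (48.5%, against 52.9% of intermediate and 20.6% of slow domains). In 8, under 35% of the sequence was soft-masked (24.2%, against 8.28% of intermediate and 1.87% of slow domains), and the median share of unique 31-mers in those 8 was 94.0%. Among the 33, the commonest longest frame was 371 codons, a length picked from the fast class itself after its values were seen. It occurred in 10 of the 33 (30.3%), in 7.76% of intermediate and in 1.01% of slow domains. That choice favours a high share in the fast class, so these shares are a description only. None of the 33 had 1000 bp of family 1 sequence. Fast domains near genes with the shortest distances lay 8.20 kb from Nkx6-1, a homeobox gene of pancreas and spinal cord, 13.4 kb from Acox2, a peroxisomal oxidase, and 15.3 kb from Adra2a, an adrenergic receptor. The first, chr5:101648101-101656800, had 94.3% unique 31-mers and 25% soft-masked sequence. The widest fast domain, of 10.2 kb with a frame of 1281 codons, had Pabpc4l as its nearest coding gene, 287 kb away.

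The 19 residual domains, on 10 chromosomes, held no family 1 sequence at all, and in 9 of them under 35% of the sequence was soft-masked (47.4%). The one closest to a coding start lay 1.41 kb from Msx3, a homeobox gene of the neural tube, at chr7:140050501-140057700, with 94.4% unique 31-mers. Others lay 8.61 kb from Kif26a, a kinesin family gene, and 15.6 kb from Chil3, a chitinase-like gene. The widest, of 11.7 and 9.9 kb, were nearest to the prolactin family genes Prl2c3 and Prl2c2. Of all domains with under 35% soft-masked sequence, 24 of 169 were slow (14.2%), 128 intermediate, 8 fast and 9 residual.

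The 3 slow domains closest to coding starts were all of family 1, which held 62.2% of all slow domains. These 3 lay 145 bp from Ttll4, a tubulin-modifying enzyme gene (chr1:74651401-74661600, with 7180 bp of family 1 sequence), 160 bp from Inpp5f, a phosphoinositide phosphatase gene, and 233 bp from Prpf39, a splicing factor gene. Of all 383 domains within 10 kb of a coding start, 24.3% were of family 1, against 42.6% of the 155 above 1 Mb. The widest slow domains, both 12 kb and of family 1, were nearest to Plekhm3, 977 bp away, and to Rgs1, 132 kb away. The closest intermediate domains were of other kinds. One lay 51 bp from Klra5, a natural killer cell receptor gene, with a family 3 pair of 86.5% identity, and another 233 bp from Nutf2-ps1. The third lay 74 bp from Myod1, the master gene of muscle, at chr7:46370101-46376400, with 96.8% unique 31-mers and 16.8% soft-masked sequence. The widest intermediate domains were nearest to Serpinb3d, 32.1 kb away and with 10147 bp of the LINE-1-like sequence, and to Zeb2, 1572 kb away. The latter domain was a family 1 pair with 2513 bp of its sequence beside 2915 bp of the LINE-1-like one.

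By nearest coding gene, counts are descriptions and no member overlaps the gene. Olfactory receptor genes (Olfr) were nearest to 112 domains, of which 33 were slow (29.5%). Vomeronasal receptor genes came next, Vmn1r with 19 slow of 54 (35.2%) and Vmn2r with 16 of 47 (34.0%). Zinc finger genes named Zfp had 27 of 54 (50.0%), with the nearest slow domain 0.437 kb from Zfp488 and of family 4. Protocadherin genes had 17 of 33 (51.5%), major urinary protein genes 7 of 12, secretoglobin genes 9 of 31, cytochrome P450 and like-named genes 10 of 28, serpin genes 4 of 13 and killer cell receptor genes (Klr) 3 of 8. Of 7 domains nearest to Obox homeobox genes, 3 were residual, 2 slow and 2 intermediate. Ugt, Speer and keratin-type genes were nearest to 3, 3 and 2 domains, defensin-type genes to 1 and Skint genes to 0. The Wilson intervals of these shares hold the 44.5% of the whole set, except that of the domains nearest to Olfr genes, 21.8 to 38.5%.

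Along the chromosome, 254 domains lay within 5 Mb of the first domain and 34.6% of them were slow, against 45.5% of the 2545 between the ends and 45.7% of the 81 in the last 5 Mb. Family 1 moved with this, at 13.0%, 30.2% and 28.4% of the domains. Without family 1 sequence the slow shares were 23.6%, 20.3% and 18%, so the order was not the same. Domains more than 100 kb from the next one were slow in 47 of 61 cases (77.0%) and of family 1 in 59.0%, and those within 5 kb of another were slow in 218 of 598 (36.5%) and of family 1 in 21.7%. Among isolated domains without family 1 sequence, 35% of 20 were slow. The part of family 1 in these differences by position was not tested.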

How the data were processed

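The authors deposited 1 table of H3K9me3 domains that gives each a word for its decay class (fast, intermediate, slow, residual), with no value per library, so depth per sample is unknown and no sample was averaged. Per the submitters' processing notes, tools included Bowtie2 2.3.4.1, SAMtools 1.1, deepTools and bedtools, with builds mm10, dm6, mm9 and GRCm38. How domains were called, how the spike-in was applied and where class limits lie was not stated in the labels. HP1β and signal tracks were not analysed here.

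Members and lists were chosen with earlier results of these data known. Sequence came from GRCm38.p6 and genes from GENCODE vM21. Repeat pairs and families were found with blastn 2.17.0, and statistics used scipy 1.17.1, numba 0.67.0, pandas 2.3.3 and numpy 2.4.6 under Python 3.11.15, with figures by matplotlib 3.10.9. Comparisons needed at least 5 domains per arm and chromosome and a threshold of 0.05. Of 124 primer binding sites, 2 that belong to tRNAs of more than 1 amino acid were dropped. Scripts were tested on simulated data. Named domains are 2 of the widest of each class, with ties at 12 kb for slow and intermediate ones, and the 3 closest to a coding start. Per repeat family, the slow domain with the most alike repeats was added, with chromosome 18 left out. Nearest genes were grouped by symbol. Sequences were planned for the 4 largest families, and that of family 5 was added after seeing the data.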

Additional observations from a re-analysis of the deposited data

How the results depend on the processing

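No paired analysis was possible because the table holds no column per library, so replicate numbers cannot enter. Of 86 values recomputed under other settings, 75 kept their direction, their side of the threshold and, for shares and counts without a test, their size, and leaving out 1 chromosome at a time kept 342 of 357. The slow share against domains on genes ran from -1.80 to 0.0854 points without 1 chromosome, turning positive without chromosome 6 or 7. The difference between pairs with a primer binding site within the mismatch limit and all other pairs was 2.32 points with pairs of at least 90% identity (adjusted exact p = 0.239), -7.65 with exact sites only (adjusted exact p = 0.0729) and 4.02 to 5.99 without 1 chromosome. Exact sites left 196 domains with pair and site. The gap to the next domain passed with means in place of medians (0.26 on the log2 scale, adjusted exact p = 0.00628) and without chromosome 17 (range over chromosomes 0.13 to 0.25). Linkage at 90% put family 1, then 619 domains, at 98.4% slow and family 3 at 66.7%. Leaving out domains with any family 1 sequence, chosen after seeing the data, gave differences of -5.87 points for slow domains against those above 12 kb (adjusted exact p = 0.111), -1.20 for fast domains against those up to 1.5 kb (adjusted exact p = 0.0699), 0.14 on the log2 scale for distance to a coding start (adjusted exact p = 0.593), -0.0088 on the log2 scale for the gap to the next domain (adjusted exact p = 0.943) and 4.11 for pairs with a site (adjusted exact p = 0.166); with a pair against none it was 21.1 and for repeat identity 2.49, both still past the threshold. The cause of these changes was not tested. No depth is given, so no class has a known precision.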
